A study of Mus musculus with 6 samples.

Results

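Rab GTPases are the small G proteins that give intracellular membranes their identity. This account covers the 57 mouse genes whose array annotation carries a Rab symbol followed by a digit and that encode a Rab GTPase, measured with 87 of the 25697 probes. Genes with a Rab-numbered symbol that encode effectors or regulators, such as Rab3gap1 and Rab11fip5, were left out of the 57 and are counted with the regulators. Expression was measured on Illumina bead arrays in E14 cells, a mouse embryonic stem cell line. In the knockdown group, 3 samples carried a short hairpin RNA against REST for 72 h, and in the control group 3 samples carried the empty pSuper vector. REST is a transcriptional repressor that silences many neuronal genes outside neurons. No further genotype or treatment is given in the labels, and nothing in them says that the 3 samples of a group were separate cultures.

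A Rab protein cycles between a GTP-bound form on a membrane, where it recruits effectors such as tethers and motors, and a GDP-bound form that a carrier protein holds in the cytosol. Exchange factors load the GTP, and GTPase-activating proteins end the signal. Different Rabs mark different membranes: Rab1 and Rab6 act around the Golgi, Rab5 on early endosomes, Rab7 on late endosomes, Rab8 and Rab11 in transport to the plasma membrane, and the Rab3 and Rab27 groups on secretory vesicles. Rab3a is the abundant Rab of synaptic vesicles in neurons.

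Each array had a mean intensity of 442 to 473, and between 46.4% and 49.0% of probes lay above background, which here means a detection p under 0.05. All 10 listed embryonic stem cell markers were above background on all 6 arrays, Sox2 and Nanog among them. Of these, Zfp42, Dppa4 and Fbxo15 rose and Pou5f1 fell, and the other markers were not called. The summed level of the list, on the linear scale, was 50186 to 50610 on knockdown and 40544 to 43597 on control arrays. Most of this sum came from Esrrb, Dppa4 and Fbxo15, so it does not stand for the list as a whole. The median log2 change of the list, knockdown minus control, was -0.02, with 5 genes above 0 and 5 below. Of 10 neuronal markers, 5 were above background on some array, of which Map2, Rbfox3, Elavl3 and Syp rose and Stmn2 fell, whereas Tubb3, Dcx, Elavl4, Snap25 and Syt1 were above it on none. The summed level of that list, on the linear scale, was 3215 to 3826 on knockdown arrays and 2482 to 2548 on control arrays. Most of it came from Syp and Stmn2, so it does not stand for the list as a whole. In log2, Syp was 10.29 to 10.58 on knockdown and 7.12 to 7.30 on control arrays. Stmn2 was 10.19 to 10.51 on knockdown and 10.83 to 10.89 on control arrays. For 10 fibroblast markers the sum was 661 to 696 on knockdown and 797 to 907 on control arrays. Most of it came from Thy1, with a mean log2 level of 8.73 on knockdown and 9.09 on control arrays. Thy1 did not pass the test (limma adjusted p = 0.0616). Twist1, which is dimmer, was lower, and Col1a1, Col3a1, Dcn, Lum and Postn were above background on none. The part of these cell type markers in the Rab results was not tested. Rest itself was not above background on any array, so the labels could not be checked against it.

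Of the 57 Rab genes, 42 had a probe above background on at least 3 of the 6 arrays and were tested. Levels below are normalized log2 intensities, and changes are knockdown minus control on that scale. With limma's test and a Benjamini-Hochberg adjusted p under 0.05, 5 Rab genes rose in REST shRNA cells and 10 fell. Together these 15 were 35.7% of the tested Rab genes, beside 27.0% of all 8740 tested genes. By direction, 11.9% of Rab genes rose, beside 13.9% of all genes, and 23.8% fell, beside 13.1%. The median change over the tested Rab genes was -0.01, beside 0.00 over all tested genes. The knockdown and control arrays did not overlap for 20 Rab genes, or 47.6%, beside 45.3% of all tested genes. Called changes of at least 2-fold were seen for 3 Rab genes, Rab39 and Rab25 upward and Rab3a downward, and such changes made up 3.03% of all tested genes. The count of 10 falls was smaller with any 1 array left out, at 4 without control replicate 1, 6 without knockdown replicate 1 and 5 without each of the others. Over all tested probes the falls then numbered 991 to 1368, in place of 1619. With median scaling 5 Rab genes were higher and 8 lower. In the authors' ratios 6 were higher and 4 lower, beside 2118 probes higher and 907 lower over the whole array, and the cause of that shift was not tested. In bulk RNA, fewer cells of a type and less RNA per cell cannot be told apart.

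**Figure D1:**
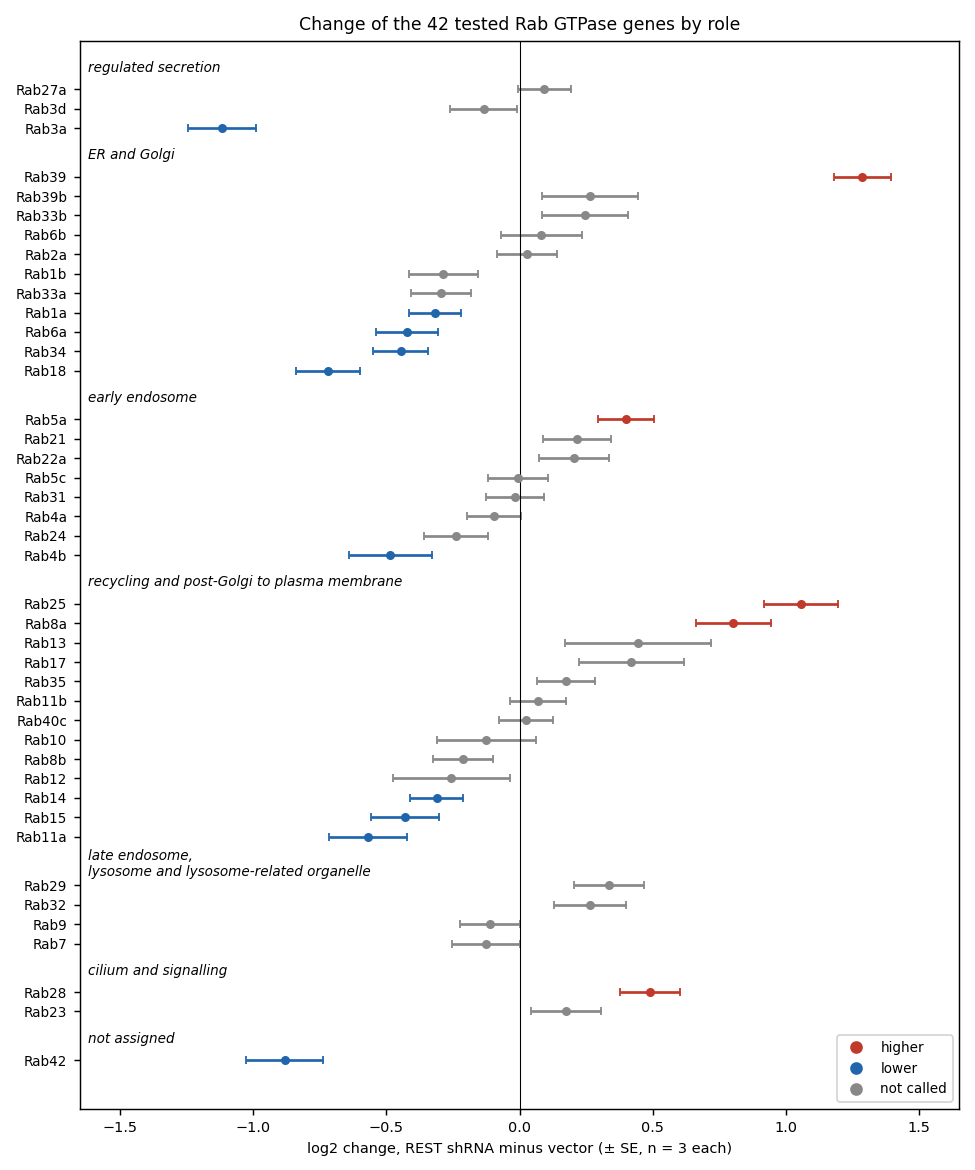
Log2 change of each tested Rab gene, REST shRNA minus vector, on the horizontal axis, with genes grouped down the page by site of action and bars showing ± SE (n = 3 arrays each). Rab39, Rab25 and Rab8a lie farthest to the right and Rab3a, Rab42 and Rab18 farthest to the left. None of the 4 tested late endosomal or lysosomal Rabs was called, beside 27.0% of all tested genes.

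Among the Rabs of regulated secretion, Rab3a fell and its tested relatives were not called. Rab3a, which recruits Rim proteins and rabphilin to synaptic vesicles, measured 7.26, 7.00 and 7.01 in REST shRNA samples, against 8.14, 8.40 and 8.08 in vector samples. Before normalization its intensities were 140.7, 111.7 and 112.2 on knockdown arrays and 275.9, 306.6 and 246.1 on control arrays. All 3 knockdown arrays lay below all 3 control arrays, and the gene was above background on each. The change was -1.12 ± 0.13 (SE, n = 3; limma adjusted p = 0.000821), which left 46.1% of the vector level. With any 1 array left out the change was between -1.20 and -1.02. The call was lost only when a fold above 1.5 was required of the change (adjusted p = 0.0934).

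Rab3d, the paralog known from secretory granules of exocrine cells, measured 8.96, 8.87 and 8.55 in REST shRNA samples and 8.96, 8.94 and 8.89 in vector samples. The groups overlapped, and the change of -0.14 had a 95% interval of -0.42 to 0.15 (limma adjusted p = 0.466). Its sign was not stable, with 0.02 in the authors' ratios. Rab3b and Rab3c, the other two members of the subfamily, were not above background on any array and were not tested. Rab3b measured 4.42 to 4.58 on knockdown and 4.34 to 4.41 on control arrays, and Rab3c 4.42 to 4.51 on knockdown and 4.60 to 4.77 on control arrays. These levels lay under the lowest value that counted as above background, 4.96 to 5.08 depending on the array.

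Rab27a, which acts in granule docking, was not called either, at 8.81 ± 0.05 in REST shRNA and 8.72 ± 0.05 in vector samples (SD, n = 3; limma adjusted p = 0.528). Rab27b was above background on 1 knockdown array and no control array at its brightest probe, and Rab37, a Rab of secretory granules in mast cells, on none. Rab3a was therefore the 1 called gene among 3 tested Rabs of this group, or 33.3%, beside 27.0% of all tested genes.

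The fall of Rab3a was set against Rab3d within each array. Rab3a minus Rab3d was -1.70, -1.87 and -1.55 on knockdown arrays, against -0.83, -0.54 and -0.80 on control arrays, with no overlap. The difference of their changes was -0.98, with a 95% interval of -1.35 to -0.62. A two-sided exact permutation test over the 6 arrays gave p = 0.1, the smallest p that 3 against 3 allows. The value stayed between -0.83 and -1.05 in every setting tried. Rab3a had been picked out with earlier results of these data known, so these numbers describe its fall and do not test it independently.

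Against each of the other 41 tested Rab genes, the within-array difference for Rab3a ran from -2.40 (Rab39) to -0.24 (Rab42), with a median of -1.11. Knockdown and control arrays did not overlap for 40 of the 41, and the 95% interval lay below 0 for 38. The same held for 96.4% and 93.4% of all other tested genes, so this separation is not particular to the Rab family. The exact permutation p was 0.1 for these 40 (0.1025 adjusted over the 41). The interval included 0 for Rab4b, Rab11a and Rab42. For Rab42 it ran from -0.92 to 0.45, so its fall was not distinguished from that of Rab3a.

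**Figure D2:**
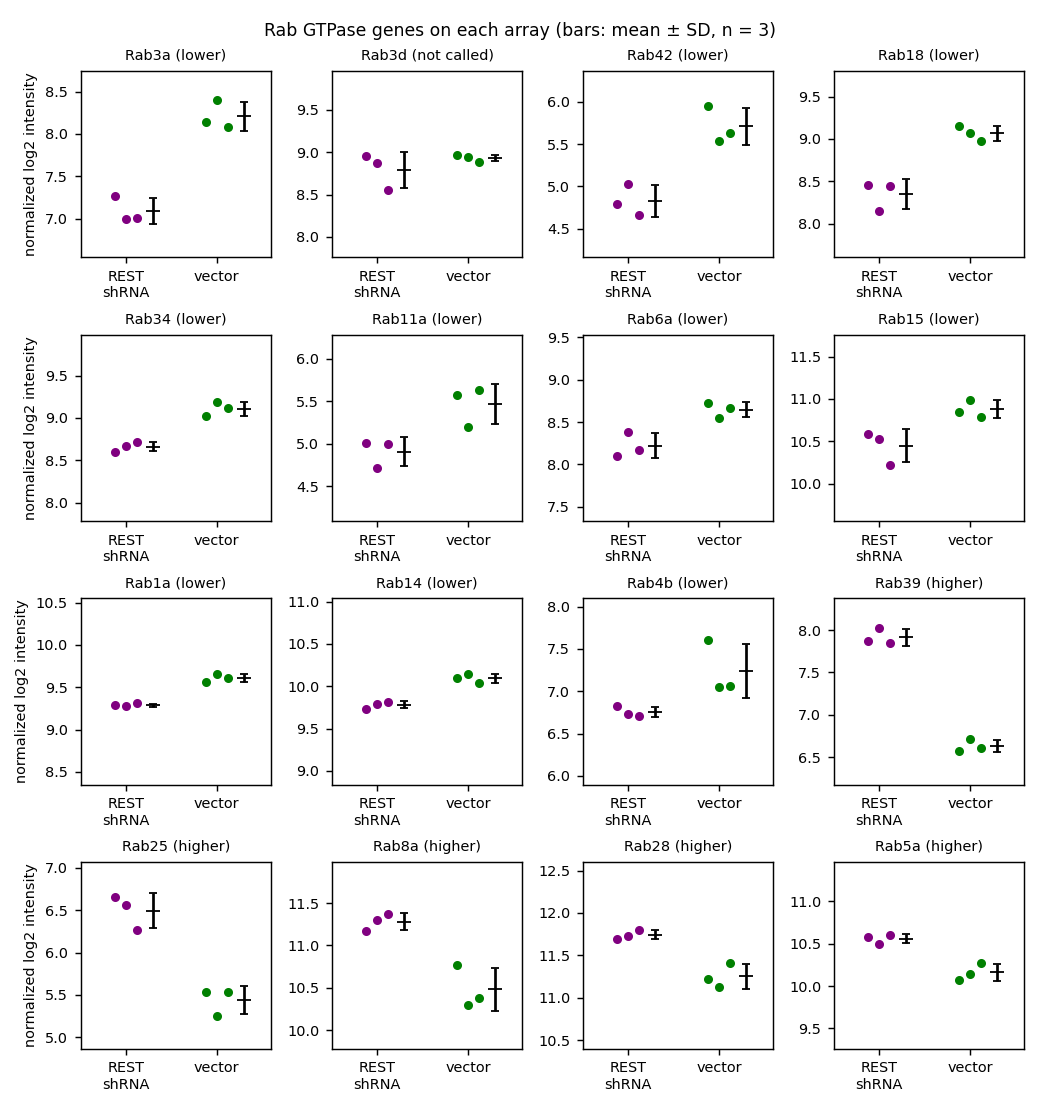
Normalized log2 intensity of the 15 called Rab genes and Rab3d on each array, with 3 REST shRNA samples left and 3 vector samples right in each panel and bars showing mean ± SD; every panel spans the same 2.2 log2 units. For Rab3a the knockdown arrays lie at 7.00 to 7.26 and the control arrays at 8.08 to 8.40, for Rab39 they lie at 7.85 to 8.03 and 6.57 to 6.72, and for Rab3d they overlap.

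Promoter windows from RefSeq (build GRCm38.p6, 250 bases before to 50 after the start) are shown for the Rab3 and Rab39 pairs as examples. In each of these pairs 1 paralog was called and the other was not. The same held for other pairs compared below, such as Rab8a with Rab8b and Rab5a with Rab5c, whose windows are not printed. Both parts of the RE1 element, the long sequence that REST binds, were searched on both strands, the left part as CAGCACC and the right part as GGACAG. Capitals mark a match to either, and a match in capitals may read as the reverse complement.

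Rab3a promoter (chr8:70754453-70754752, + strand): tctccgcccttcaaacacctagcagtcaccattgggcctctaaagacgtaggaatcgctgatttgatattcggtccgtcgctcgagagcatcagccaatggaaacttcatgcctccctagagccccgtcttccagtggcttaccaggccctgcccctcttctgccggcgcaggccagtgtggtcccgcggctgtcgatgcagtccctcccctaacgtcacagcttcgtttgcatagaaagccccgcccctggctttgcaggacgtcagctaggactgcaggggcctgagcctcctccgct
Rab3d promoter (chr9:21918134-21918433, - strand): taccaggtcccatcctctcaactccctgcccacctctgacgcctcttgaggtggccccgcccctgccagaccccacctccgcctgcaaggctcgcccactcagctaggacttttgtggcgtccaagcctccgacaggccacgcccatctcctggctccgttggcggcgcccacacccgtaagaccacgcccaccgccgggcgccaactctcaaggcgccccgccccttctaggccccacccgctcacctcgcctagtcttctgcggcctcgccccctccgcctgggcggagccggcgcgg
Rab39 promoter (chr9:53706183-53706482, - strand): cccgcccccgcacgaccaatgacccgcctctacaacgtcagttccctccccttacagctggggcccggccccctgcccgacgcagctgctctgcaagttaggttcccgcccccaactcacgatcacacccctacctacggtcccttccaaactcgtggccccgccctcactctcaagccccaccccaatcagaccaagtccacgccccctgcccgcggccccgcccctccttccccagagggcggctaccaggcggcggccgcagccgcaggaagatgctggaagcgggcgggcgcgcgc
Rab39b promoter (chrX:75578182-75578481, - strand): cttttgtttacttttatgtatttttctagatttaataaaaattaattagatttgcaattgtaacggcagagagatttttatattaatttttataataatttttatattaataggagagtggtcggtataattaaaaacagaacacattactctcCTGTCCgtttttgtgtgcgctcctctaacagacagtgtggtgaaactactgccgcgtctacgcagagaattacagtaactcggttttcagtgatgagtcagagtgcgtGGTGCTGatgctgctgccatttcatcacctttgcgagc

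Neither part of the element occurs in the windows of Rab3a, Rab3d or Rab39, nor in the other Rab3a window of the table. The Rab39b window, whose gene was not called, holds both parts, far apart and both on the opposite strand. Of the 57 Rab genes, 47 had 1 or more of 59 such windows. The left part was found in 11.9% of these windows and the right part in 16.9%, beside 7.14% and 22.2% of all 32851 windows. The joined core, with the left and right parts separated by any 2 bases, occurred in none of the 59 and in 12 of all windows (0.0365%). The windows differ in base composition, with 60.0% G and C for Rab3a, 71.0% for Rab3d, 70.7% for Rab39 and 35.7% for Rab39b. The median was 61.3% over Rab windows and 52.7% over all windows. These matches describe letters in a short window and do not show where REST binds.

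Rab39 had the largest change of all tested Rab genes. Its human counterpart acts in phagosome maturation and autophagy, and it is grouped here with Golgi Rabs. It measured 7.87, 8.03 and 7.85 in REST shRNA samples, against 6.57, 6.72 and 6.61 in vector samples. Before normalization the intensities were 225.7, 248.8 and 217.4 on knockdown arrays and 83.4, 85.3 and 78.3 on control arrays. The groups were far apart, and the 2.44-fold rise (1.29 ± 0.11 in log2 units, SE, n = 3; limma adjusted p = 0.000172) passed the test in all 17 alternative settings, at 1.05 to 1.33. Rab39b, a neuronal Rab whose human gene is mutated in X-linked intellectual disability, measured 6.14, 6.08 and 5.95 in REST shRNA samples and 5.36, 6.08 and 5.94 in vector samples. Those groups overlapped, and its change of 0.26 had a 95% interval of -0.14 to 0.67 (limma adjusted p = 0.313).

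The other called Golgi and ER Rabs fell, 4 of the 11 tested. With Rab39, 45.5% of this set was called, beside 27.0% of all tested genes. Rab18, which acts on lipid droplets and the ER, measured 8.45, 8.15 and 8.44 in REST shRNA samples, against 9.15, 9.06 and 8.98 in vector samples. Its groups did not overlap, and the fall to 60.8% of the vector level (-0.72 ± 0.12 in log2 units, SE, n = 3; limma adjusted p = 0.00382) was lost only when a fold above 1.5 was required. Its other probe was not above background on any array. Rab34, a Golgi Rab that also acts in cilium formation, measured 8.60, 8.67 and 8.71 in REST shRNA samples and 9.02, 9.19 and 9.11 in vector samples, a change of -0.45 (limma adjusted p = 0.0137). A further Rab34 probe gave -0.30 (adjusted p = 0.0528), and the call was lost in the authors' ratios (-0.29, adjusted p = 0.122) and without control replicate 2 (adjusted p = 0.0506).

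Smaller falls were seen for Rabs of Golgi transport. Rab6a, which acts in return traffic from the Golgi to the ER, measured 8.11, 8.39 and 8.17 in REST shRNA samples and 8.73, 8.55 and 8.66 in vector samples. Its change of -0.42 (limma adjusted p = 0.0271) was not matched at its 2 other probes, at -0.17 and -0.18 (adjusted p = 0.431 and 0.352), and the mean of the 3 was not called (-0.26, adjusted p = 0.121). The Rab6a call was also lost in the authors' ratios (-0.27, adjusted p = 0.184), with the replicate block (0.0540) and when control replicate 1 or 3 or knockdown replicate 1 or 3 was left out (highest 0.0812). Rab1a, the Rab of ER to Golgi transport, measured 9.28, 9.27 and 9.31 in REST shRNA samples and 9.56, 9.66 and 9.61 in vector samples, a change of -0.32 (adjusted p = 0.0417). The Rab1a groups did not overlap, yet the call was lost with any 1 array left out, with median scaling (adjusted p = 0.0525), with the replicate block (0.0788) and in the authors' ratios (-0.16, adjusted p = 0.406). The paralog Rab1b had a like change, -0.29, with a 95% interval of -0.58 to 0.01 (adjusted p = 0.142), at 7.66, 7.53 and 7.85 in REST shRNA samples and 7.87, 8.17 and 7.87 in vector samples. A dimmer Rab1b probe gave 0.08. Rab33a, a Golgi Rab also found on axonal vesicles, did not pass the test (-0.30, adjusted p = 0.0874), at 5.64, 5.56 and 5.84 in REST shRNA samples and 5.91, 5.98 and 6.05 in vector samples. The remaining tested members of this set, Rab2a, Rab6b and Rab33b, lay between 0.03 and 0.24.

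Among Rabs of recycling and transport to the plasma membrane, 2 of 13 tested rose and 3 fell. Together they were 38.5% of this set, beside 27.0% of all tested genes. Rab25, the Rab11 relative of epithelial cells that recycles membrane to the apical surface, measured 6.65, 6.57 and 6.26 in REST shRNA samples, against 5.53, 5.25 and 5.54 in vector samples. It was above background on all 6 arrays, the groups did not overlap, and it rose 2.08-fold (1.06 ± 0.14 in log2 units, SE, n = 3; limma adjusted p = 0.00143). At this low level the size depends on the offset added after background correction, with 0.68 at an offset of 50 in place of 16 (adjusted p = 9.74e-05). Rab8a, which carries cargo from the Golgi to the plasma membrane and the cilium, measured 11.17, 11.30 and 11.38 in REST shRNA samples and 10.77, 10.30 and 10.38 in vector samples. It rose 1.74-fold (0.80 ± 0.14 in log2 units, SE, n = 3; adjusted p = 0.00467), and its dimmer probe rose as well (0.60, adjusted p = 0.00908). The call was lost for Rab25 and Rab8a only when a fold above 1.5 was required.

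The 3 that fell had smaller changes. Rab11a, the general Rab of recycling endosomes, has a single dim probe here, at 5.01, 4.71 and 4.99 in REST shRNA samples and 5.58, 5.20 and 5.64 in vector samples. It was above background on 1 knockdown array and 3 control arrays, so its change of -0.57 (limma adjusted p = 0.0216) is in part a change to background. It was -0.45 when knockdown values under the detection floor were raised to that floor, and with an offset of 50 it was -0.30 (adjusted p = 0.0339). The Rab11a call was lost when control replicate 1 or 3 or knockdown replicate 2 was left out (highest adjusted p = 0.0733). Rab15, an endosomal Rab enriched in brain, measured 10.59, 10.52 and 10.22 in REST shRNA samples and 10.85, 10.99 and 10.78 in vector samples (-0.43, adjusted p = 0.0362). Rab14, which moves membrane between the Golgi and endosomes, measured 9.74, 9.79 and 9.82 in REST shRNA samples and 10.10, 10.14 and 10.04 in vector samples (-0.31, adjusted p = 0.0470). The groups overlapped for neither gene, but the authors' ratios gave no call for Rab15 (-0.29, adjusted p = 0.150) or Rab14 (-0.18, adjusted p = 0.368). Rab15 was not called without any filter on dim probes (adjusted p = 0.0524) or with any 1 array other than knockdown replicate 1 left out (highest 0.113). Rab14 was not called with the replicate block (0.0853) or with any 1 array left out (highest 0.130).

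Rab13 and Rab17, both Rabs of polarized epithelial cells, had the largest changes among members that did not pass. Rab13 measured 6.02, 5.59 and 5.78 in REST shRNA samples and 5.46, 4.67 and 5.93 in vector samples (0.44, 95% interval -0.18 to 1.06; limma adjusted p = 0.269). Rab17 measured 5.03, 5.13 and 5.69 in REST shRNA samples and 5.17, 4.78 and 4.64 in vector samples (0.42, 95% interval -0.03 to 0.86; adjusted p = 0.152). In each the control arrays ran into the knockdown range, and some control arrays were at background. Rab8b, Rab10, Rab11b, Rab12, Rab35 and Rab40c, the rest of this set, lay between -0.26 and 0.17.

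On early endosomes, 1 of 8 tested Rabs rose and 1 fell, together 25%, beside 27.0% of all tested genes. Rab5a, which drives early endosome fusion, measured 10.58, 10.50 and 10.60 in REST shRNA samples and 10.07, 10.14 and 10.27 in vector samples, a change of 0.40 (limma adjusted p = 0.0239). Its dimmer probe gave 0.31 (adjusted p = 0.0975), and the call was lost without any 1 array other than control replicate 3 (highest adjusted p = 0.0725). Rab4b, which acts in rapid recycling, measured 6.82, 6.74 and 6.70 in REST shRNA samples and 7.60, 7.05 and 7.06 in vector samples, a change of -0.49 (adjusted p = 0.0480). Control replicate 1 was the high one, and without it the change was -0.30 (adjusted p = 0.106). The Rab4b call was also lost with median scaling (0.0626), without a filter (0.0824), in the authors' ratios (0.136) and without control replicate 2 or any 1 knockdown array (highest 0.123). Rab4a, Rab5c, Rab21, Rab22a, Rab24 and Rab31 lay between -0.24 and 0.21 at their brightest probes and were not called. A dimmer Rab22a probe gave 0.39 (limma adjusted p = 0.0737). The 3 probes of Rab24, which is linked to autophagy, gave -0.24, -0.37 and -0.22.

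No Rab of late endosomes, lysosomes or related organelles was called, of only 4 tested, beside 27.0% of all tested genes. Rab29, a partner of the kinase Lrrk2, measured 7.58, 7.66 and 7.78 in REST shRNA samples and 7.31, 7.57 and 7.14 in vector samples. The Rab29 groups just missed each other, and its change of 0.33 did not pass (limma adjusted p = 0.0943), although it did in the authors' ratios (0.44, adjusted p = 0.0306) and without control replicate 2 (0.45, adjusted p = 0.0464). Rab32, which acts in melanosome formation, measured 6.25, 6.74 and 6.49 in REST shRNA samples and 6.20, 6.26 and 6.23 in vector samples (0.26, adjusted p = 0.181). Rab7, the main Rab of late endosomes, gave -0.13 at its brightest probe (adjusted p = 0.495), 0.15 at another and 0.35 at the third, which was the only one called (adjusted p = 0.0460). Rab9, which acts in return traffic from late endosomes to the Golgi, gave -0.11.

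Of the cilium-linked Rabs, Rab28 rose and Rab23, a regulator of Hedgehog signalling, did not pass (0.17). Rab28, which acts in photoreceptor cilia, measured 11.70, 11.73 and 11.80 in REST shRNA samples and 11.22, 11.13 and 11.42 in vector samples, a 1.40-fold rise (0.49 ± 0.11 in log2 units, SE, n = 3; limma adjusted p = 0.0137). Its other probe gave 0.12 (adjusted p = 0.518), the mean of both gave 0.30 (adjusted p = 0.0417), and the call was lost without control replicate 2 (adjusted p = 0.0519). Rab42 was not given a site of action here. It measured 4.79, 5.03 and 4.66 in REST shRNA samples and 5.95, 5.54 and 5.63 in vector samples, a change of -0.88 ± 0.14 (SE, n = 3; adjusted p = 0.00350). Rab42 was above background on 1 knockdown array and all control arrays, so the size is uncertain: it was -0.69 with knockdown values raised to the detection floor and -0.47 with an offset of 50.

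The 15 untested Rab genes had levels of 4.29 to 5.23. Rab2b, Rab3b, Rab3c, Rab7b, Rab9b, Rab20, Rab30, Rab36, Rab37 and Rab44 were above background on no array at their brightest probe. Rab19, Rab27b, Rab38, Rab40b and Rab43 were above it on 1 or 2 arrays. Of the 10 Rab genes with more than 1 tested probe, 8 had the same sign at every such probe, and Rab1b and Rab7 did not.

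Paralogs were compared within arrays in 11 pairs from the same subfamily, chosen after their values had been seen. The difference of changes was 1.02 for Rab39 minus Rab39b, with a 95% interval of 0.47 to 1.57. For Rab8a minus Rab8b it was 1.01 (0.41 to 1.61). Rab8b itself, at 9.94 ± 0.03 in REST shRNA and 10.15 ± 0.15 in vector samples (SD, n = 3), was not called (-0.21, limma adjusted p = 0.200). The dimmer Rab8b probe gave -0.10 (limma adjusted p = 0.571). Rab25 differed from both Rab11 genes, by 1.63 from Rab11a (1.13 to 2.12) and by 0.99 from Rab11b (0.60 to 1.37), with Rab11b at 12.16 ± 0.04 in REST shRNA and 12.09 ± 0.11 in vector samples. Rab11a minus Rab11b was -0.64 (-1.02 to -0.26), and Rab5a minus Rab5c was 0.41 (0.04 to 0.77). Rab11a was above background on 1 knockdown array, so the size of each difference that involves it is uncertain.

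The intervals included 0 for the other four pairs. Rab4b minus Rab4a was -0.39 (-0.89 to 0.11), Rab6a minus Rab6b was -0.50 (-1.04 to 0.03), and Rab33a minus Rab33b was -0.54 (-1.12 to 0.04). Rab1a minus Rab1b was -0.03 (-0.34 to 0.28). An exact permutation test gave no pair of the 11 a p below 0.1, the smallest that 3 against 3 arrays allow. Adjusted over the pairs, the smallest p of that test was 0.122.

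**Figure D3:**
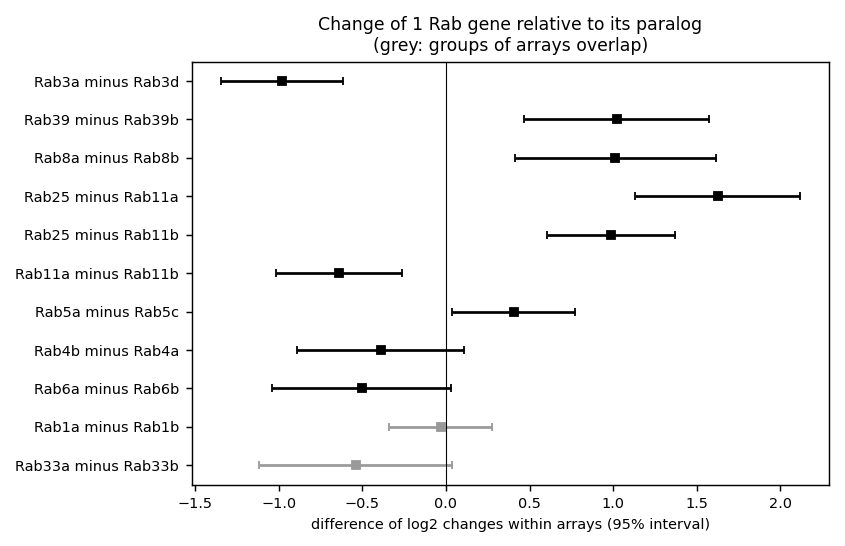
Difference of the log2 changes of 2 paralogs, REST shRNA minus vector, computed within arrays, with its 95% interval; each row is 1 of the 11 pairs, and grey marks pairs whose knockdown and control arrays overlap. Rab3a minus Rab3d lies at -0.98 and Rab25 minus Rab11a at 1.63, while Rab1a minus Rab1b lies at -0.03. Rab11a was above background on 1 knockdown array, so the sizes for Rab25 minus Rab11a and Rab11a minus Rab11b are uncertain.

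Around the Rab genes, a list of their regulators and effectors was followed. Of 139 names, 113 had a probe and 87 were tested, of which 10 rose and 7 fell. These 17 were 19.5% of those tested, beside the 27.0% of all genes, and the median change was 0.01. In the authors' ratios the counts were 15 higher and 4 lower, and calls over all tested probes there were also mostly rises, at 70.0%. By class, 4 of 28 exchange factors rose and 3 fell, 3 of 24 GTPase activators rose and 1 fell, 3 of 30 effectors rose and 2 fell, and 1 of 5 carrier and prenylation genes fell.

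Of the 13 tested genes listed here as partners of Rab3 and Rab27, 4 were called, or 30.8%, beside the 27.0% of all genes. Whether the product of each listed gene binds these Rabs was not tested. Rims2, a scaffold of the presynaptic active zone that binds GTP-loaded Rab3, measured 7.48, 7.34 and 7.24 in REST shRNA samples, against 6.43, 6.02 and 6.39 in vector samples. All knockdown arrays were higher, and Rims2 rose 2.11-fold (1.07 ± 0.14 in log2 units, SE, n = 3; limma adjusted p = 0.00119) while Rab3a fell. Rab3il1, an exchange factor for Rab3a, fell with it, at 5.13, 5.42 and 5.04 in REST shRNA samples and 6.30, 6.74 and 6.09 in vector samples. Its change was -1.18 ± 0.18 (SE, n = 3; adjusted p = 0.00237), or -0.73 with an offset of 50, and 1 knockdown array was at background. Madd, another Rab3 exchange factor, rose by 0.43 (adjusted p = 0.0137) at a low level, 5.62 ± 0.05 in REST shRNA and 5.19 ± 0.05 in vector samples (SD, n = 3). The Madd call was lost with an offset of 50 (0.24, adjusted p = 0.0602) and with a trended robust variance (adjusted p = 0.0760).

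Rab3ip, the exchange factor of Rab8, rose by 0.42 (limma adjusted p = 0.0288), as Rab8a did, at 6.86, 6.94 and 7.15 in REST shRNA samples and 6.63, 6.61 and 6.44 in vector samples. Its call was lost with the replicate block (adjusted p = 0.0569) and without any 1 array other than knockdown replicate 1 (highest 0.0920). Thus 3 of the 13 listed partners rose and 1 fell, with Rab3ip counted among them although it is described here by its action on Rab8. Neither the GTPase activator Rab3gap1 (0.27, adjusted p = 0.0685) nor the Rab27 effectors Sytl2 (0.42), Myrip (0.40), Unc13d (0.12) and Sytl1 (-0.06) passed. The active-zone gene Rims3 (0.05), the GTPase activators Tbc1d10a (-0.17) and Tbc1d10c (-0.07) and the Rab-binding protein Rabif (-0.07) did not pass either. Rph3a, Rims1, Rims4, Doc2a, Doc2b, Sytl3, Sytl4, Sytl5, Mlph, Exph5, Rph3al and Tbc1d10b were too dim to test.

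The other called regulators are described by the size of their change. Several that act on the same Rabs were not called, among them Mon1a (0.30), Ccz1 (-0.04), Rilp (0.30) and Plekhm1 (0.10) for Rab7 and Rabgef1 (0.09), Rin3 (0.05), Rbsn (-0.01) and Rabep2 (0.06) for Rab5. Mon1b, a homologue of the yeast Mon1 subunit of the Rab7 exchange factor, measured 6.89, 7.26 and 7.64 in REST shRNA samples and 5.86, 5.59 and 5.65 in vector samples, a 2.96-fold rise (limma adjusted p = 0.000829). A further Mon1b probe rose by 1.32, but another gave 0.04 (adjusted p = 0.865), and the mean of all 3 was 0.97. Tbc1d5, a GTPase-activating protein for Rab7 that works with retromer, rose 2.01-fold (adjusted p = 0.000666). Its other probe gave 0.10 and the mean of both 0.55. Appl1, an effector of Rab5, rose 1.58-fold (adjusted p = 0.00452) and the Rab5 exchange factor Rin2 1.45-fold (adjusted p = 0.0103), whereas Rin1, its relative, fell by 0.43 (adjusted p = 0.0227). The GTPase activator Tbc1d25, known in autophagy, rose 1.59-fold (adjusted p = 0.00396).

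Among those that fell, the TRAPP subunit Trappc6a changed by -0.69 (limma adjusted p = 0.00533), the Rab8 and Rab13 effector Micall2 by -0.68 (adjusted p = 0.00533) and the Rab11 effector Rab11fip5 by -0.67 (adjusted p = 0.0110). The other probes of Micall2 (-1.05) and Rab11fip5 (-0.71) fell too. The GTPase activator Sgsm3 fell by 0.40 (adjusted p = 0.0249). Calls for Rin1 and Sgsm3 were lost in the authors' ratios (-0.29 and -0.24, adjusted p = 0.128 and 0.235). For Rin1 the call was lost when control replicate 1 or 2 or knockdown replicate 3 was left out (highest adjusted p = 0.0730), and for Sgsm3 without any 1 array other than control replicate 2 (highest 0.0697).

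**Figure D4:**
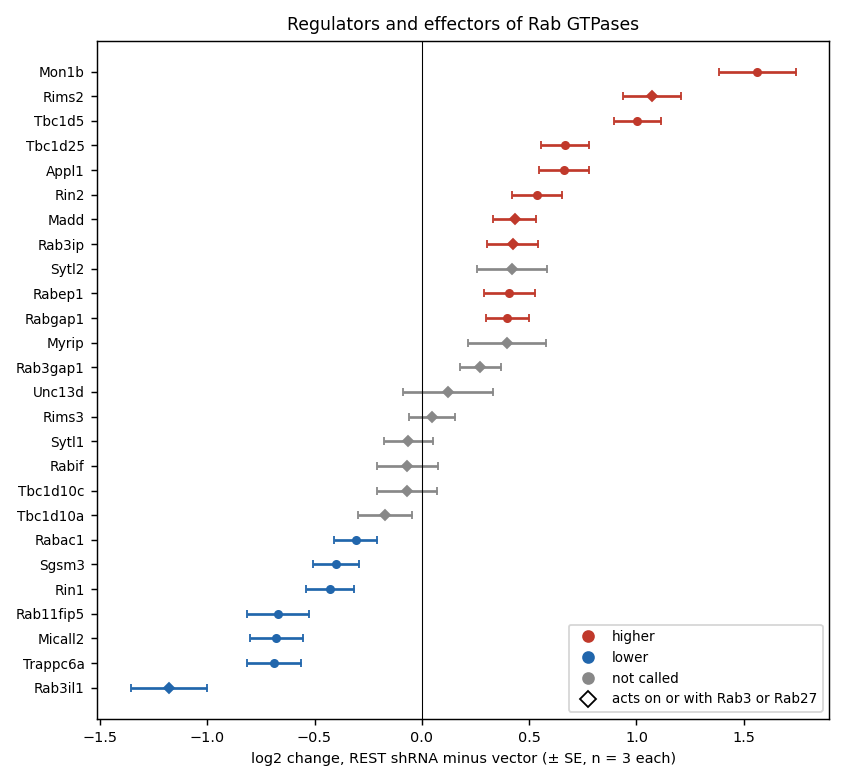
Log2 change, REST shRNA minus vector, of the called regulators and effectors and of all tested genes listed as Rab3 or Rab27 partners (diamonds). Bars show ± SE (n = 3 arrays each). Mon1b, Rims2 and Tbc1d5 lie at 1.00 or above and Rab3il1 at -1.18. The listed partners that were not called lie between -0.17 and 0.42.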

How the data were processed

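Per the labels' protocols, RNA was cleaned with a DNase step and biotin-labelled cRNA was hybridized. The deposited table lists raw linear intensities, without scaling between arrays, and 25.3% to 26.3% of them lie below 0. A detection score, also deposited, rises with intensity, so 1 minus it was read as the detection p. A further table from the authors holds linear ratios, whose denominator is not stated in the sources used here.

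Background correction used limma's normal-exponential model (limma 3.58.1, R 4.3.3, offset 16), followed by quantile normalization and log2 of the deposited intensities. Probes were fitted where the detection p was below 0.05 on 3 or more arrays (12406 of 25697), with group as the only term and Benjamini-Hochberg adjustment over all of them. A gene is represented by its brightest tested probe. The platform annotation named 23978 probes with 1 symbol, none with several, and left 1719 unnamed. Intervals for differences within arrays use the pooled variance of 3 arrays per group. Alternatives changed the background model, offset, scaling, filter, variance model, array weights, required fold and probe choice, used the authors' ratios or a replicate block, or left out 1 array.

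The members, gene lists and naming rule were chosen with earlier results of these data known. By that rule, values on every array are given for the Rab3 genes, every called member and the 6 other tested members with the largest change. Up to 6 regulators in each direction plus all tested genes listed as Rab3 or Rab27 partners are named. Rabs outside that rule were named after their values were seen. The number of arrays limits the precision. Since the labels do not name separate cultures, p-values reflect the spread of these 6 samples alone, which could be technical.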

Additional observations from a re-analysis of the deposited data

How the results depend on the processing

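Rab39 stayed called in all 17 alternative settings. Among the settings that could test them, Rab3a, Rab25, Rab42, Rab18 and Rab8a stayed called in each except a required fold above 1.5. That requirement, which by construction asks for a larger change, left 96 probes higher and 35 lower among all tested probes, 1 Rab gene higher and 0 lower, and 1 regulator higher and 0 lower, with Rab3a at -1.12 (adjusted p = 0.0934). The other 9 called Rab genes each lost their call without at least 1 array. The authors' ratios gave 2118 higher and 907 lower probes, with 6 Rab genes higher and 4 lower, and 15 regulators higher and 4 lower; the cause was not tested. Leaving out 1 array at a time gave 1027 to 1355 probes higher and 991 to 1368 lower, 4 to 5 Rab genes higher and 4 to 6 lower, and 7 to 11 regulators higher and 4 to 6 lower. The lowest counts over all probes came without control replicate 2 (1027 and 991) and without knockdown replicate 3 (1029 and 1003). Rab genes lower numbered 10 with all arrays. They numbered 4 without control replicate 1, 6 without knockdown replicate 1, and 5 without each of the other arrays. Regulators lower numbered 4 without control replicate 1 or knockdown replicate 3, in place of 7.

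The deviations of arrays that share a number correlated at -0.06, 0.03 and 0.04, so no pairing was assumed. With the replicate block, 1418 probes were higher and 1463 lower, 5 Rab genes were higher and 7 lower, and Rab6a, Rab1a and Rab14 lost their calls. Genes that were never called changed sign near 0. In the authors' ratios Rab3d was 0.0181, Sytl1 0.0309, Tbc1d10c 0.0343 and Rabif 0.0792. With 1 array left out, Unc13d ran from -0.0597 to 0.377, Sytl1 from -0.115 to 0.0118, Tbc1d10c from -0.163 to 0.0448 and Rabif from -0.209 to 0.0453. Dim probes limit Rab11a, Rab42, Rab25 and Rab3il1, whose changes shrank with an offset of 50.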
